A study of Mus musculus with 5 samples.

Results

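This account covers 47 genes of DNA repair and the damage checkpoint, taken by gene symbol from a list of mismatch, base excision, nucleotide excision, recombination, end joining, checkpoint and direct reversal genes. Of these, 43 were measured, among 12393 genes in all. Where several probe sets carried a gene's symbol alone, the one with the highest mean signal over the 5 arrays stood for the gene. Pms1, Neil1, Lig4 and Trp53 were not analysed here. Affymetrix arrays measured RNA from 3 intestinal tumours of Apc1638N mice on the C57Bl6/J strain (tumours 16, 18 and 2) and from normal intestinal epithelium of C57Bl6/J wild-type mice (wild types 36 and 62). Every mouse is labelled male and 8 months old. The Apc1638N allele truncates Apc, a brake on Wnt signalling. Epithelial cells were cut from tissue sections by laser capture microdissection in both groups. Nothing in the labels ties each sample to a separate mouse, so the spread behind every p-value is that between samples within each group and may be technical.

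DNA repair restores bases, strands and chromosome ends after damage, and each pathway handles its own kind of lesion. Mismatch repair removes copying errors, base excision repair removes single damaged bases, and nucleotide excision repair cuts out bulky lesions. Homologous recombination and end joining mend double-strand breaks, and checkpoint kinases hold the cell cycle while repair proceeds. In the intestinal epithelium, cells divide in the crypts and stop dividing as they move on to the villi, and many repair factors are made most in dividing cells.

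Values are log2 signals as deposited, and a change is tumour minus wild type on that scale. A gene was called when its limma adjusted p, taken over all 12393 genes, was under 0.05. Of the 43 measured genes, 13 rose in tumours, 0 fell and 30 did not pass. The count of 13 is 30.2% of the measured genes, where 11.3% of all genes rose and 10.5% fell. At an unadjusted p under 0.05 in limma, 26 repair genes were higher and 0 lower, where 4505 of all 12393 genes passed in either direction. The genes that rose were Exo1, Nthl1, Xrcc1, Polb, Parp1, Apex1, Ercc1, Xpc, Fancl, Blm, Rad54l, Xrcc5 and Chek2. Their changes ran from 0.20 to 2.03 on the log2 scale, or 1.15-fold to 4.09-fold, with adjusted p from 0.00962 to 0.0470. The median change over the 43 genes was 0.28, against 0.00 over all genes, and 33 of them (76.7%) had a change above 0, where 51.4% of all genes had one. Every tumour value lay above both wild-type values for 30 genes (69.8%), where this held for 27.0% of all genes, and below both for 2 genes, where this held for 23.7%. Fewer cells of a type and less RNA per cell cannot be told apart in such samples.

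**Figure D1:**
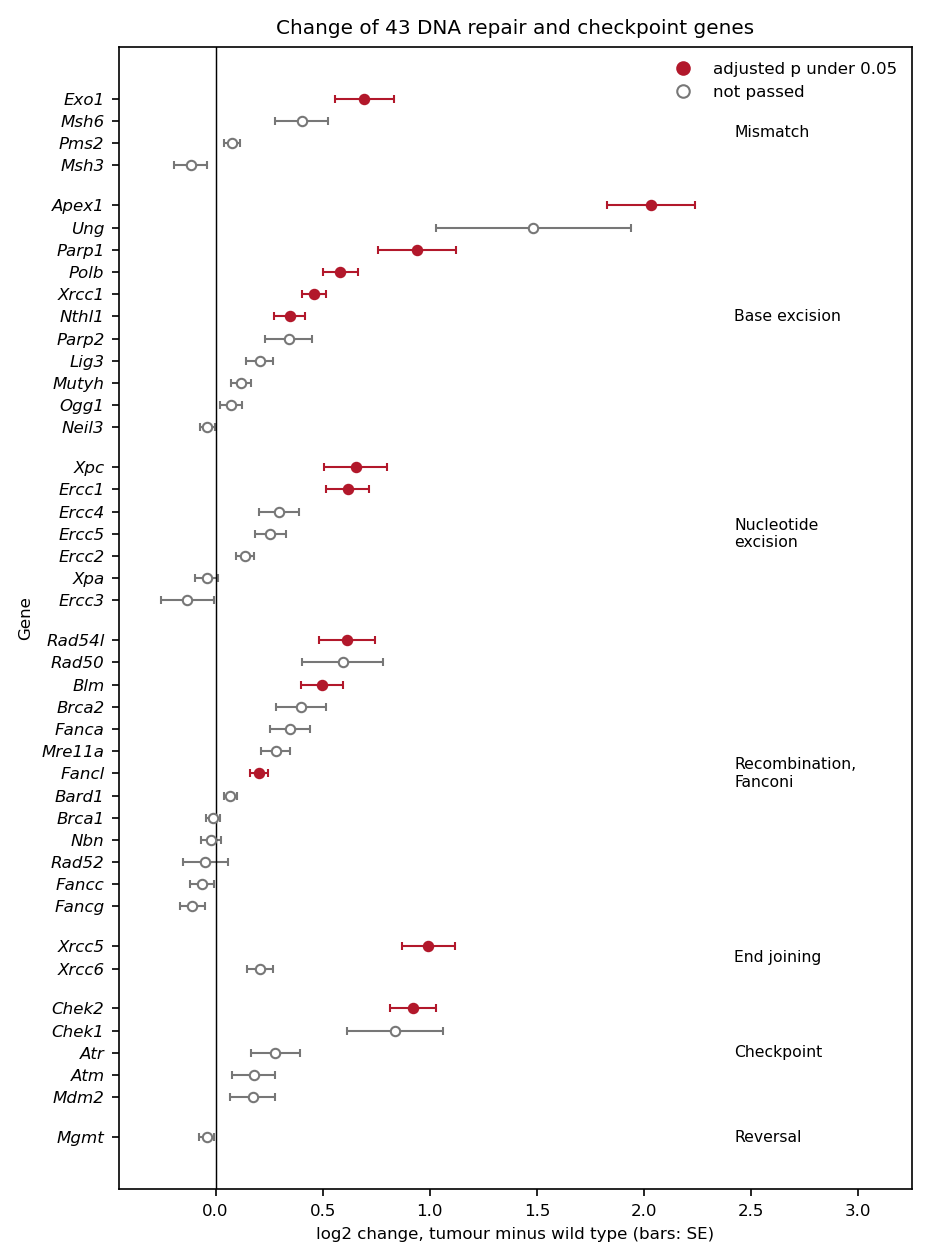
Log2 change (tumour minus wild type) with its SE for the 43 measured genes, arranged by repair group, with filled red points for adjusted p under 0.05 in limma. The 13 called genes all lie right of 0, with Apex1 farthest at 2.03, and no gene that lies left of 0 is called.

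How many of these genes were called depended on which arrays entered the fit. Without tumour 2 there were 12 calls among the 43 (27.9%, where 10.4% of all genes rose), and 9 of the 13 were among them. Without tumour 16 the count was 1, namely Xrcc1, which is 2.33% of the 43, where 2.9% of all genes rose. It was also 1 without tumour 18 (Apex1, where 4.28% of all genes rose) and without wild type 36 (Blm, where 1.96% rose). Without wild type 62, which left 1 wild type, no gene was called at all, and the median change of the 43 genes was 0.29. The share of called repair genes was thus near that of all genes in 4 of these 5 fits. When probe sets tied between arrays of 1 group were left out too, the counts without tumour 16, tumour 18, tumour 2, wild type 36 and wild type 62 were 6, 8, 17, 5 and 1 of 40 to 43 measured genes, where 8.9%, 10.2%, 16.4%, 4.83% and 4.47% of all genes rose.

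Other features of the samples differed between the groups. The 19 listed proliferation markers, 18 of them measured, had 13 higher and 0 lower, with a median change of 0.96, so cell division genes moved with the repair genes, and their part in the result was not tested. Mki67, a marker of dividing cells, rose by 1.27 (SE 0.08, adjusted p = 0.00525 in limma). Of 7 fibroblast markers 1 rose, and their summed linear signal was 2089 to 9965 in tumours and 987 to 1301 in wild types, highest in tumour 18. Of 8 leukocyte and T cell markers 5 fell, with sums of 732 to 902 in tumours and 2637 to 3510 in wild types. Sums for the 4 measured B and plasma cell markers, 2 of which fell, were 2798 to 5102 in tumours and 12946 to 24503 in wild types. Absorptive enterocyte markers had 6 of 8 lower, with sums of 2584 to 9291 in tumours and 39547 to 45883 in wild types. Of 8 general epithelial markers 2 rose (the keratin genes Krt18, with a change of 2.44, and Krt19, adjusted p = 0.0411) and 1 fell (Vil1, for the brush border protein villin, with a change of -1.26), and their sums overlapped, with 27348 to 36304 in tumours and 27716 to 31893 in wild types. Of 5 smooth muscle markers 1 rose (sums 1529 to 1752 in tumours and 835 to 1040 in wild types), of 5 macrophage markers 1 rose (1549 to 2634 in tumours and 1174 to 1747 in wild types) and of 5 endothelial markers none passed (514 to 620 in tumours and 514 to 571 in wild types). The gap between 3′ and 5′ beta-actin signal, a measure of RNA quality, averaged 4.15 in tumours and 2.91 in wild types, and that of Gapdh 4.64 in tumours and 3.84 in wild types, with no overlap. The part of these differences in the results was not tested. Apc fell by 0.50 (SE 0.07, adjusted p = 0.0175 in limma), but whether its probe set lies before or after the allele's break was not examined, so this checks no label.

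Promoter sequences are shown for 6 genes that carry motifs of E2F, Myc or NF-Y, factors that act at many promoters of dividing cells. The 6 were picked from a larger number of repair genes with these motifs, called or not, which are counted below. The motifs were chosen with the changes already known. Apex1 (the main abasic site endonuclease), Xrcc5 (the Ku80 subunit of the break-binding Ku dimer), Parp1 (a sensor of strand breaks), Chek2 (a checkpoint kinase) and Nthl1 (a glycosylase for oxidised pyrimidines) rose, while Brca2, the recombination mediator, did not pass. Each window, from RefSeq on build GRCm38.p6, runs from 250 bases before to 50 bases after the annotated gene start, 5′ to 3′ on the gene's own strand. Capitals mark matches to the E-box bound by Myc (CACGTG), the CCAAT box (CCAAT) or the E2F site (TTTCCCGC, TTTCGCGC, TTTGCCGC or TTTGGCGC), each searched on both strands. Matches of different motifs do not overlap in these windows.
Apex1, chr14:50924699-50924998, plus strand: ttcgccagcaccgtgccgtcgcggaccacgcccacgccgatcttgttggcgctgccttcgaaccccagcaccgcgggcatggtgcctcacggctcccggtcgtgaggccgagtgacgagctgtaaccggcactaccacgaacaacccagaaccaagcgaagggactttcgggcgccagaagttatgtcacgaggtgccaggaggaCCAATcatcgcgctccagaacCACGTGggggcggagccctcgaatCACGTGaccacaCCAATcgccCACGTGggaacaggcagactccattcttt
Xrcc5, chr1:72307171-72307470, plus strand: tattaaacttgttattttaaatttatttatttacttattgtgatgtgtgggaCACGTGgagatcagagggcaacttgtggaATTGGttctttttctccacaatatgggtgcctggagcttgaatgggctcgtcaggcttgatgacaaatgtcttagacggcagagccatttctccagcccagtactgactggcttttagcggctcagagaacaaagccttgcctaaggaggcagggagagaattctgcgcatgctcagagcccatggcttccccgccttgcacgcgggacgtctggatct
Parp1, chr1:180568641-180568940, plus strand: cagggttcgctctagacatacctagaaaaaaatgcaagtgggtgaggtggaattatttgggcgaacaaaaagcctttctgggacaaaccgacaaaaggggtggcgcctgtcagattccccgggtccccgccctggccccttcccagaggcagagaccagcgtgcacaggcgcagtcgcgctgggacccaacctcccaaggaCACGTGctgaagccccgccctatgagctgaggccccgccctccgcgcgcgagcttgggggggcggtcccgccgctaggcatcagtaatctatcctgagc
Chek2, chr5:110839733-110840032, plus strand: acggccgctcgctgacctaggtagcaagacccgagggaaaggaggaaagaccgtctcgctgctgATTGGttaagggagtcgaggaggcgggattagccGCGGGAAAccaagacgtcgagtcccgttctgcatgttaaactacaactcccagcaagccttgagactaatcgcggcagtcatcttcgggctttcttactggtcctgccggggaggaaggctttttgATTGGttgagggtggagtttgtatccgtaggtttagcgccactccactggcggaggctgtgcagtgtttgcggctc
Nthl1, chr17:24632432-24632731, plus strand: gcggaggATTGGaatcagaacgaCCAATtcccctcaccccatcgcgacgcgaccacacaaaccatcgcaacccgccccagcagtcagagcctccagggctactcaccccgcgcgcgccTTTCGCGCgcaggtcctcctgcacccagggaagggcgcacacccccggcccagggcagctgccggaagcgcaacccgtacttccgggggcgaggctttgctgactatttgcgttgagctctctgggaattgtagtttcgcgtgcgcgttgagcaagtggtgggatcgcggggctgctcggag
Brca2, chr5:150522371-150522670, plus strand: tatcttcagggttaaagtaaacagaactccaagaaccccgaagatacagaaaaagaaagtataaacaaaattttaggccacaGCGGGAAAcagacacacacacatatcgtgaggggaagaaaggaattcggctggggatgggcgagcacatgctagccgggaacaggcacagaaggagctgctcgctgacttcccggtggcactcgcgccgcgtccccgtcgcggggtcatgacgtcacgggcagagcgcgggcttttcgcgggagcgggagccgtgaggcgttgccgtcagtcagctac

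The Apex1 window held the E-box 3 times and the CCAAT box 2 times. Of the 43 measured genes, 37 had a promoter window in the RefSeq table, 10 of them called. Exo1, Polb, Xpc, Ercc3, Rad50 and Nbn had none. The E2F letters stood in 8 of the 37 (21.6%), against 4.07% of the 9887 array genes with a window. They were in 2 of 10 called genes (Chek2 and Nthl1) and in 6 of 27 genes that did not pass (Bard1, Brca2, Fancg, Msh3, Msh6 and Xrcc6). The E-box stood in 5 of 37 (13.5%, against 10.8% of array genes), namely the called genes Apex1, Parp1 and Xrcc5 and the genes Lig3 and Parp2, which did not pass. The CCAAT box stood in 22 of 37 (59.5%, against 42.3%), 7 of them called. A match of letters is a description of the sequence and shows no binding.

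Base excision repair held the largest change. It removes a damaged base with a glycosylase, cuts the abasic site and refills the gap. Of its 11 measured genes 5 rose, 0 fell and 6 did not pass, with a median change of 0.35. The 5 are 45.5%, where 11.3% of all genes rose. Apex1, whose product cuts the abasic site, had log2 signals of 12.38, 12.37 and 11.83 in tumours 16, 18 and 2, against 10.10 and 10.22 in wild types 36 and 62. It rose by 2.03 (SE 0.20, adjusted p = 0.00962 in limma), a 4.09-fold difference. All 3 tumours lay above both wild types, and tumour 2 was the lowest tumour. The other 2 Apex1 probe sets rose by 1.98 and 1.53 (adjusted p = 0.00828 and 0.0270 over all probe sets). In fits that left out tied probe sets and 1 array, Apex1 kept its call in all 5, and with tied probe sets kept it lost the call without tumour 16 or either wild type.

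Further along the same pathway, the gap-filling polymerase, the scaffold and the break sensor rose as well. Polb, DNA polymerase beta, had signals of 8.63, 8.71 and 8.49 in tumours, against 7.98 and 8.07 in wild types. Its change was 0.58 (SE 0.08, adjusted p = 0.0179), with no overlap of the groups, but Polb was not called when its probe sets were averaged (0.22, adjusted p = 0.103). Xrcc1, the scaffold that gathers the enzymes of single-strand break repair, had 7.60, 7.49 and 7.48 in tumours, against 7.10 and 7.03 in wild types. The 3 tumours lay close together, and the change was 0.46 (SE 0.06, adjusted p = 0.0133). Parp1, which binds strand breaks and makes poly(ADP-ribose), had 7.63, 7.86 and 7.29 in tumours, against 6.70 and 6.60 in wild types. That is a change of 0.94 (SE 0.18, adjusted p = 0.0338), 1.92-fold, with tumour 18 highest. With probe sets whose name marks a target shared between transcripts left out, Parp1 was not called (0.21, adjusted p = 0.0727), and with its probe sets averaged the change was 0.46. Its relative Parp2 differed by 0.34 and did not pass (adjusted p = 0.104).

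Among the glycosylases 1 of the 5 measured passed, where 11.3% of all genes rose. Nthl1 had 6.29, 6.16 and 6.13 in tumours, against 5.91 and 5.79 in wild types. Both wild-type values were in the lowest 25% of their arrays. The change of Nthl1 was 0.35 (SE 0.07, adjusted p = 0.0402 in limma), which was not called with median centring (adjusted p = 0.0517). Ung, the uracil glycosylase, had 8.78 and 8.98 in tumours 16 and 18 but 7.65 in tumour 2, against 6.89 and 7.09 in wild types. Its mean difference of 1.48 (SE 0.46) was the second largest among the 43 and did not pass (adjusted p = 0.0941). Without tumour 2 the difference was 1.89 and passed (adjusted p = 0.0135 in limma). Ogg1 and Mutyh, which act against oxidised guanine and its mispairs, differed by 0.07 and 0.12, and Neil3 by -0.04, and none of these passed. The second Ogg1 probe set gave 0.32, and Ogg1 was called when its probe sets were averaged (0.20, adjusted p = 0.0479). Lig3, the ligase that partners Xrcc1, had 8.47, 8.37 and 8.29 in tumours, against 8.17 and 8.18 in wild types. Its groups did not overlap, and the difference of 0.21 did not pass (adjusted p = 0.0893).

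**Figure D2:**
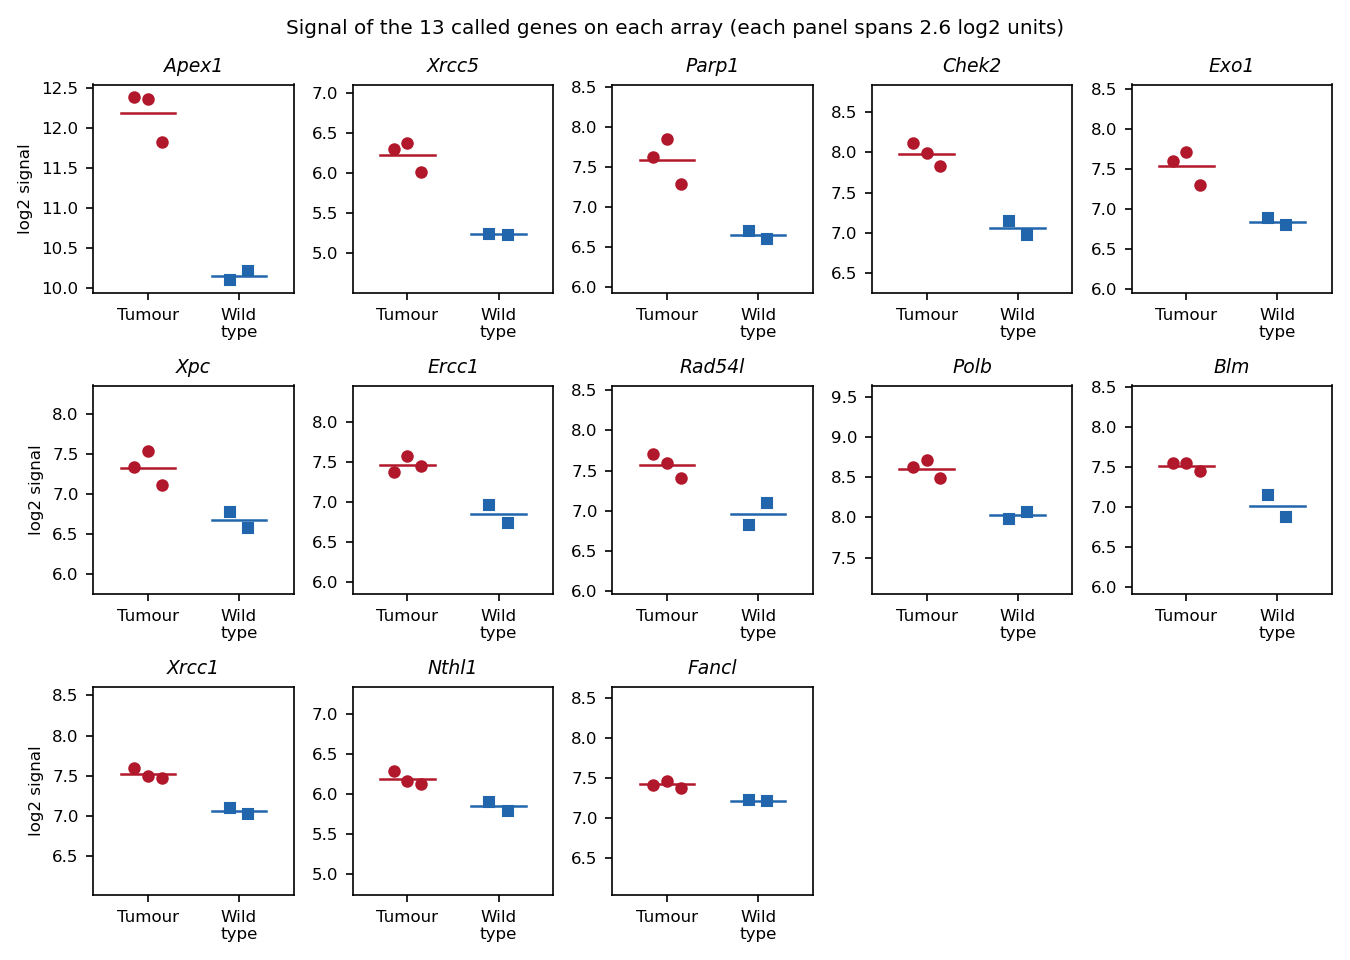
Log2 signal on each array for the 13 called genes, tumours left (red circles) and wild types right (blue squares), with group means as lines and every panel spanning the same log2 range. In each panel all 3 tumours lie above both wild types, and the gap is widest for Apex1 (12.19 in tumours and 10.16 in wild types).

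In mismatch repair the exonuclease rose and the recognition factors did not pass. Exo1, which cuts away the mismatched strand and also resects breaks, had 7.59, 7.70 and 7.30 in tumours, against 6.88 and 6.80 in wild types. It rose by 0.69 (SE 0.14, adjusted p = 0.0356), 1.62-fold, and the groups did not overlap, while the mean of its probe sets rose by 0.39. Msh6, a subunit of the complex that finds base mismatches, differed by 0.40 (adjusted p = 0.0928), and Msh3, its counterpart for small loops, by -0.12 (adjusted p = 0.361). Pms2, an endonuclease subunit, had 7.40, 7.33 and 7.33 in tumours, against 7.29 and 7.27 in wild types. The tumours were all above, by 0.08 on average (adjusted p = 0.246).

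Nucleotide excision repair had 2 of 7 genes higher (28.6%, where 11.3% of all genes rose), 0 lower and a median change of 0.26. Xpc, which finds the lesion, had 7.33, 7.53 and 7.12 in tumours, against 6.77 and 6.57 in wild types, and rose by 0.66 (SE 0.15, adjusted p = 0.0470, with 0.0317 to 0.0539 over the alternatives that kept all arrays). Ercc1, part of the nuclease that cuts on the 5′ side, had 7.37, 7.57 and 7.45 in tumours, against 6.96 and 6.73 in wild types, and rose by 0.62 (SE 0.10, adjusted p = 0.0231). Tumour 18 was highest for both genes and no value overlapped. The helicase subunits of the TFIIH complex did not pass. Ercc2 had 7.99, 7.99 and 8.07 in tumours, against 7.89 and 7.87 in wild types, a difference of 0.14 (adjusted p = 0.0989). Ercc3 differed by -0.13 (adjusted p = 0.498) with overlapping groups. The nuclease genes Ercc4 and Ercc5 differed by 0.30 and 0.26, and the damage-binding Xpa by -0.04, and none of these passed.

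Among 13 recombination and Fanconi anaemia genes, 3 rose, 0 fell and 10 did not pass, with a median of 0.20. The 3 are 23.1%, where 11.3% of all genes rose. Rad54l, a motor protein of strand exchange, had 7.70, 7.59 and 7.41 in tumours, against 6.82 and 7.09 in wild types. It rose by 0.61 (SE 0.13, adjusted p = 0.0422), and its other probe sets gave 0.57 and 0.53. Blm, the helicase that unwinds recombination intermediates, had 7.55, 7.55 and 7.45 in tumours, against 7.16 and 6.88 in wild types. The rise of Blm was 0.50 (SE 0.10, adjusted p = 0.0345). Fancl, the ubiquitin ligase of the Fanconi pathway, had 7.42, 7.47 and 7.38 in tumours, against 7.23 and 7.22 in wild types. This was the smallest called change, 0.20 (SE 0.04, adjusted p = 0.0384), and it was not called with quantile normalization, with median centring or with tied probe sets left out (adjusted p from 0.0328 to 0.0629 over the 9 alternatives that kept all arrays).

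The best known breast cancer genes of this pathway did not pass. Brca1, which directs break resection and repair, differed by -0.01 (adjusted p = 0.849). Its groups overlapped, and its other 3 probe sets differed by 0.28, 0.10 and 0.06 without passing. Brca2 differed by 0.40 (adjusted p = 0.0861) and Bard1, the partner of Brca1, by 0.07 (adjusted p = 0.187). In the complex that first binds broken ends, Rad50 had 8.38, 8.56 and 7.98 in tumours, against 7.74 and 7.68 in wild types. Rad50 differed by 0.59 (SE 0.19, adjusted p = 0.103), with tumour 2 nearest to wild type, while its partners Mre11a and Nbn differed by 0.28 (adjusted p = 0.0584) and -0.02 (adjusted p = 0.779). Without tumour 2, Rad50 (0.76, adjusted p = 0.0253) and Brca2 (0.50, adjusted p = 0.0233) were called in limma. Mre11a was called in 3 of 8 alternatives that kept all arrays, namely quantile normalization, the filter at the 40th percentile and the robust eBayes with a trend (lowest adjusted p = 0.0462). Fanca, Fancc and Fancg of the Fanconi core complex differed by 0.35, -0.06 and -0.11, and Rad52 by -0.05. Fancg was 1 of the 2 genes whose tumour values all lay below wild type.

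For end joining, 1 of the 2 measured genes rose, where 11.3% of all genes rose. These genes encode the Ku dimer, which caps broken ends. For both, every tumour value lay above both wild-type values, where this held for 27.0% of all genes. Xrcc5 (Ku80) had 6.29, 6.38 and 6.01 in tumours, against 5.24 and 5.23 in wild types, and rose by 0.99 (SE 0.13, adjusted p = 0.0144). Both wild-type values were in the lowest 25% of their arrays, so no fold is given. Xrcc6 (Ku70) had 6.80, 6.95 and 6.81 in tumours, against 6.62 and 6.68 in wild types. The difference of 0.21 did not pass (adjusted p = 0.0907).

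Checkpoint genes had 1 of 5 higher (20%, where 11.3% of all genes rose) and 0 lower. Chek2, the kinase downstream of Atm, had 8.12, 7.99 and 7.83 in tumours, against 7.14 and 6.98 in wild types, and rose by 0.92 (SE 0.11, adjusted p = 0.0130), 1.89-fold. Chek1, the kinase downstream of Atr, had 8.12, 8.18 and 7.69 in tumours, against 6.93 and 7.39 in wild types. Its difference of 0.84 (SE 0.22) did not pass (adjusted p = 0.0699), although the groups did not overlap. Chek1 was called with quantile normalization, with array weights and with tied probe sets left out. The upstream kinases Atm and Atr differed by 0.18 and 0.28, and Mdm2, the ubiquitin ligase that degrades p53, by 0.17, without passing. A second Mdm2 probe set differed by -0.42 (adjusted p = 0.0518 over all probe sets), opposite in sign to the first. Mgmt, which lifts alkyl groups directly from guanine, had 6.80, 6.81 and 6.81 in tumours, against 6.81 and 6.88 in wild types. Its difference was -0.04 (adjusted p = 0.464).

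**Figure D3:**
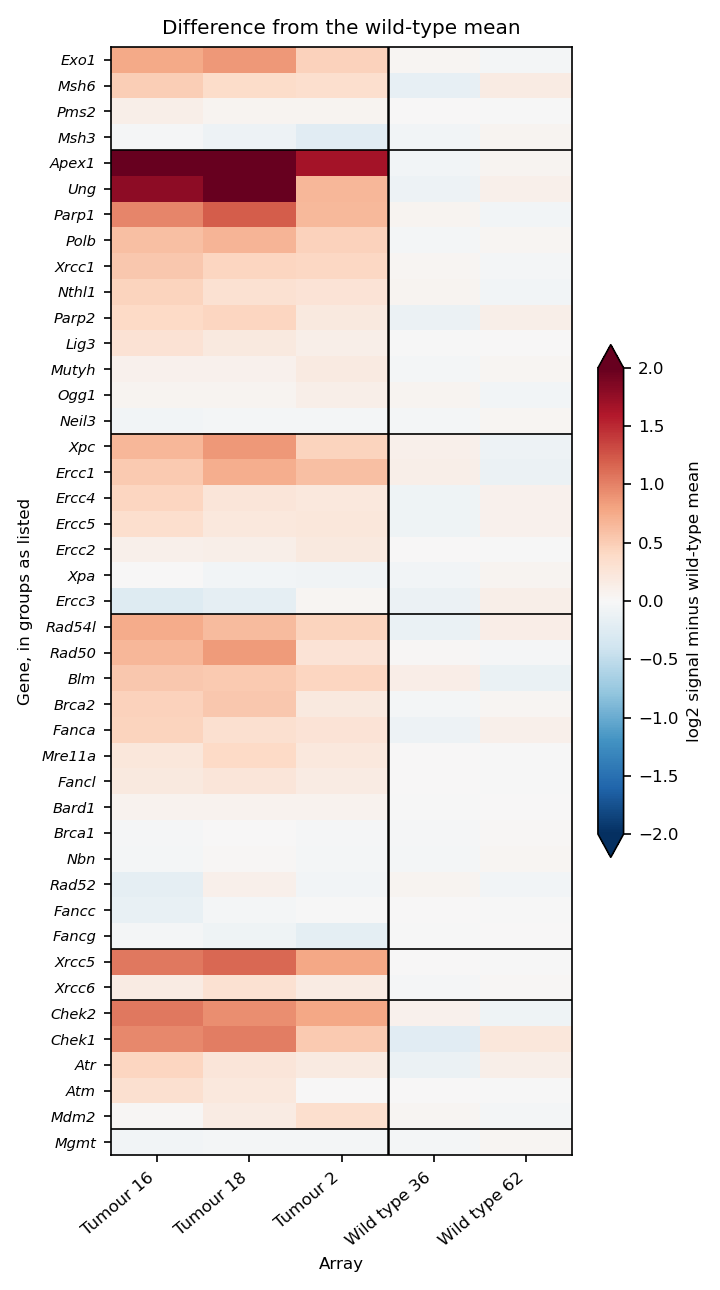
Log2 signal minus the wild-type mean for the 43 genes (rows, in repair groups separated by lines) on each array (columns, tumours left), with red above and blue below the wild-type mean. Tumours 16 and 18 are deepest red for Apex1 and Ung, and tumour 2 is paler for most called genes.

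The tumours differed among themselves in how far the repair genes lay from wild type. The median over the 43 genes of the difference from the wild-type mean was 0.33 in tumour 16, 0.25 in tumour 18 and 0.20 in tumour 2. Tumour 2 was the lowest of the 3 tumours for 12 of the 13 called genes, and for 28 of all 43. Ercc1 was the called gene for which it was not. The same shares over all genes were not counted. Over all probe sets too, tumour 2 was the tumour nearest to wild type. Its correlations (Pearson r) with wild types 36 and 62 were 0.937 and 0.931. Those of tumour 16 were 0.918 and 0.912, and those of tumour 18 were 0.917 and 0.910.

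Probe sets for a gene did not always give the same change. Of the 43 genes 18 had more than 1 probe set, with 31 further probe sets between them, of which 4 rose and 0 fell at an adjusted p under 0.05 over all probe sets, where 9.58% of all probe sets rose and 8.72% fell. For the 5 called genes with several probe sets, 3 of 9 further probe sets passed, namely those of Apex1 and 1 of Rad54l. The fourth belonged to Fancc, at 0.21 (adjusted p = 0.0486), opposite in sign to its brightest probe set. For Parp1 the further probe sets differed by 0.21 and 0.22 (adjusted p = 0.0733 and 0.0899), against 0.94 in the brightest. For Exo1 the second probe set differed by 0.09 (adjusted p = 0.356), and for Polb the others differed by 0.06 and 0.02 (adjusted p = 0.500 and 0.925). The Chek1 pattern was alike, with 0.84 in the brightest probe set and 0.18, 0.10 and 0.09 in the others. With the shared-target probe sets left out, Parp1 was not called, Xrcc1 had no probe set left and Apex1 kept its call (1.53, adjusted p = 0.0279 in limma). In that fit 10 of 36 genes were called, where 8.26% of all genes rose. Xpc was not called there either (adjusted p = 0.0539 in limma). Its only probe set is not a shared-target one, so its change stayed at 0.66 and only the genes tested beside it differed. The position of these probe sets along their transcripts was not analysed here. Of the 43 genes 6 had a mean signal below the 25th percentile of every array, 1 of them (Xrcc5) called, so small changes in these genes are measured close to the low end of the signal.

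**Figure D4:**
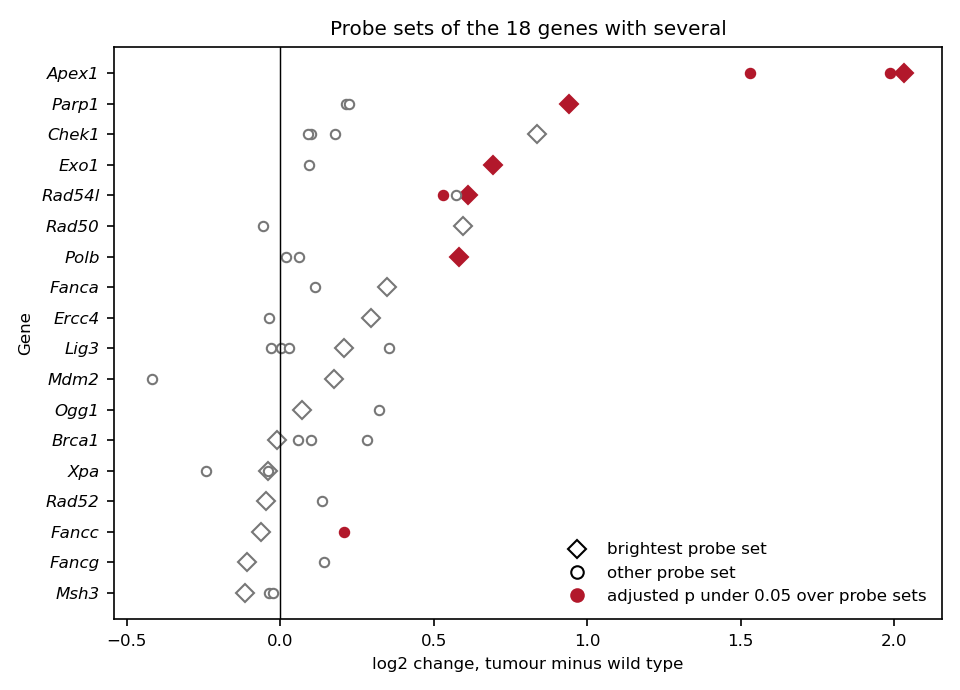
Log2 change (tumour minus wild type) of every probe set of the 18 genes with more than 1, with diamonds for the brightest and circles for the others, and red where the adjusted p over all probe sets was under 0.05. All 3 Apex1 probe sets lie at 1.53 or above and the 3 of Rad54l between 0.53 and 0.61, while the other probe sets of Parp1, Exo1, Polb and Chek1 lie between 0.02 and 0.22, left of the brightest.

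Further genes of these pathways, outside the 47, were described in lists. Of 16 replication fork genes that repair also uses, 11 rose and 0 fell (68.8%, against 11.3% of all genes), with a median of 0.54. Rpa1, the large subunit of the protein that coats single strands, rose by 1.47 (SE 0.12, adjusted p = 0.00678), Pole, the catalytic subunit of polymerase epsilon, by 1.40 (SE 0.10, adjusted p = 0.00542), and the clamp loader subunit Rfc4 by 1.29 (SE 0.22, adjusted p = 0.0247). Pcna, the sliding clamp, differed by 0.15 (adjusted p = 0.499) and did not pass.

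Among 15 other checkpoint genes 5 rose (33.3%, where 11.3% of all genes rose) and 0 fell. Trp53bp1, which binds chromatin at breaks, had 9.37, 9.61 and 9.37 in tumours, against 8.32 and 7.74 in wild types. It rose by 1.42 (SE 0.20, adjusted p = 0.0184). H2ax, the histone phosphorylated at breaks, rose by 1.22 (SE 0.15) and Timeless, a fork protection factor, by 0.71 (SE 0.13). Of 17 other recombination, Fanconi and end joining genes 4 rose (23.5%, where 11.3% of all genes rose) and 0 fell. The largest rises were those of Rad51ap1 at 0.78, the kinase gene Prkdc of end joining at 0.63 and the nuclease gene Mus81 at 0.32. Translesion polymerases and their partners, which copy past lesions, had 0 of 10 called by limma, where 11.3% of all genes rose and 10.5% fell. At an unadjusted p under 0.05 in limma, 2 were higher and 1 lower, where 4505 of all 12393 genes passed in either direction. The brightest members of that list, Ube2a and Ube2b, differed by -0.20 and -0.58 without passing.

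The 18 other excision repair genes had 5 higher (27.8%, where 11.3% of all genes rose) and 1 lower (5.56%, where 10.5% fell). The TFIIH subunit gene Gtf2h4 rose by 1.09 (SE 0.18), Cetn2, a partner of Xpc, by 1.04 (SE 0.21), and Ccnh, the cyclin of TFIIH, by 0.90 (SE 0.17). Ercc8, which acts at stalled RNA polymerase in transcription-coupled repair, went the other way. It had 7.73, 7.83 and 7.72 in tumours, against 9.25 and 9.57 in wild types. It fell by 1.65 (SE 0.11, adjusted p = 0.00540 in limma) with no overlap of the groups, the only fall among the 76 measured genes of these 5 repair, checkpoint and fork lists, of which 25 (32.9%) rose.

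Target genes of p53, the damage-activated transcription factor, formed another list. Of 18 measured, 1 rose, 3 fell and 14 did not pass, with a median of -0.08, where 11.3% of all genes rose and 10.5% fell. Sesn1, a stress-response gene, had 7.48, 7.39 and 7.76 in tumours, against 10.44 and 10.71 in wild types. It fell by 3.03 (SE 0.15, adjusted p = 0.00491). Gadd45a, a growth arrest gene, fell by 1.62 (SE 0.09, adjusted p = 0.00491), with all 3 tumour values in the lowest 25% of their arrays. Cdkn1a, the p21 inhibitor of the cell cycle, had 9.86, 9.93 and 10.10 in tumours, against 10.42 and 10.57 in wild types, and fell by 0.53 (SE 0.09, adjusted p = 0.0273). Plk2, a stress-induced kinase, rose by 0.44 (SE 0.08, adjusted p = 0.0326). Several of these genes also respond to other signals, and p53 activity was not measured.

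**Figure D5:**
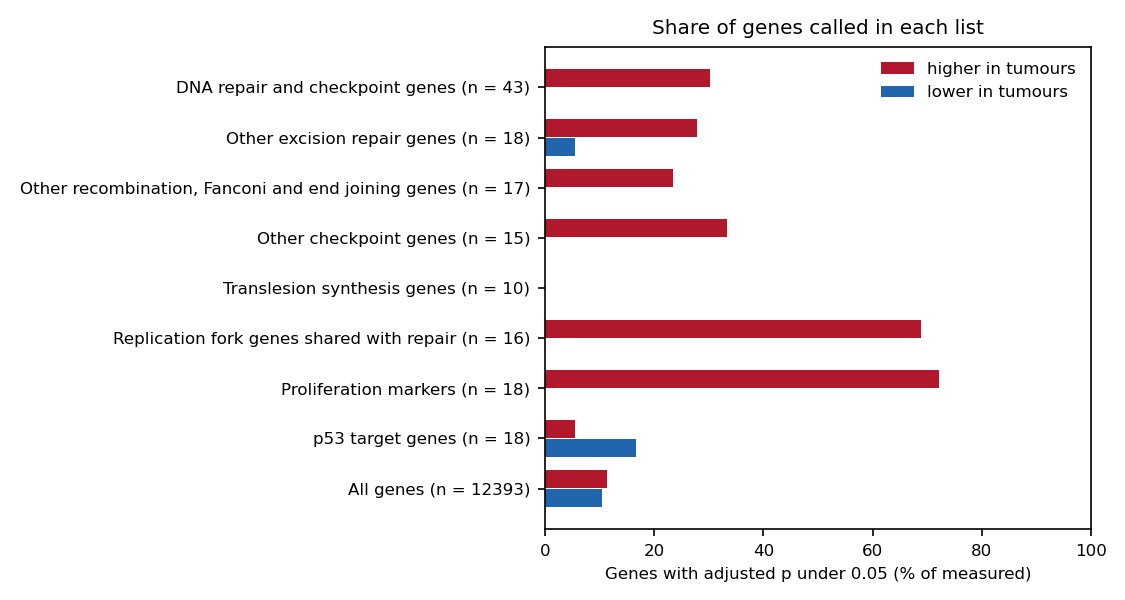
Share of measured genes in each list with an adjusted p under 0.05 in limma, higher (red) or lower (blue) in tumours, with all 12393 genes at the bottom. The 43 repair and checkpoint genes had 30.2% higher and 0 lower, between all genes (11.3% higher) and the proliferation markers (72.2% higher).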

How the data were processed

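The deposited table holds log2 expression values for 22690 probe sets on 5 arrays, which the authors made with the R package affy, per the submitters' processing notes; its version and the summary and normalization methods are not given in the sources used here. Array medians were 6.81 to 6.87. The number of arrays, 3 tumour and 2 wild-type, limits the precision, and an exact permutation test could not go below p = 0.1. Control probe sets and those with several or no symbols were left out, and the probe set of highest mean stood for each of 12393 genes. Tumour minus wild type was tested two-sided by linear models (limma version 3.58.1, R version 4.3.3). These were moderated with eBayes, and p was adjusted by Benjamini-Hochberg over all genes. The fitting steps were also run on simulated data with fewer changed genes and no tied values, which does not check the calls made here. Summaries and promoter searches used Python 3.11.15.

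The members, lists, named-gene rule and promoter motifs were chosen with earlier results of these data known. Array values were given for called genes, for the brightest uncalled gene of each group and for uncalled changes of at least 1. From each further list at most 3 called genes per direction were named, or the brightest 2 where none was called, besides Mki67, Pcna, Cdkn1a and Apc. The alternatives were quantile normalization, median centring, a filter at the 40th percentile, a robust eBayes with a mean trend, weights per array, the mean of all probe sets, leaving out shared-target or tied probe sets, adjustment over all probe sets, and leaving out each array.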

Additional observations from a re-analysis of the deposited data

How the results depend on the processing

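Changes of all 13 called genes stayed positive under all 19 alternatives, and 8 of the 13 kept their call in each of the 9 that kept all arrays and in which they were measured. In those 9 the count of repair genes that rose was 10 to 14 of 31 to 43 measured, where 8.26% to 16.8% of all genes rose, and the count that fell was 0; the median change was 0.21 with shared-target probe sets left out. Without 1 array the count ran from 0 to 12, and all genes called ran from 0 to 2380. With tied probe sets left out too, the count was 6, 8, 17, 5 and 1 without tumour 16, tumour 18, tumour 2, wild type 36 and wild type 62, and all genes called were 1844, 2132, 3289, 1480 and 1112. With 1 wild type left, that array is assumed to vary like the tumours. Signs turned for uncalled genes. With the mean of all probe sets these were Brca1 (0.11), Rad52 (0.045), Fancc (0.073), Fancg (0.018) and Mdm2 (-0.12), and with shared-target probe sets left out Rad52 (0.14). Without 1 array, tied probe sets kept or not, Xpa ran from -0.10 to 0.020, Nbn from -0.064 to 0.021 and Rad52 from -0.12 to 0.023, with 0.015 for Rad52 without wild type 36. Brca1 ran from -0.031 to 0.0094, and to 0.33 with tied probe sets left out. With probe sets averaged, the other probe sets of Brca1, Rad52, Fancc, Fancg and Mdm2 entered these values. The 0.14 of Rad52 and the 0.33 of Brca1 come from another probe set than the brightest. The cause of the other turns was not tested. No paired analysis was possible because the 2 groups share no replicate numbers. Dim genes such as Msh6 and Xrcc5 are measured near the low end of the signal.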

Other observations

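Some of these repair genes have a neighbour that starts close by on the other strand. On GRCm38.p6, 11 of the 37 genes with a promoter window had a neighbour starting within 500 bases, and 7 of these neighbours were measured. The share of all array genes with such a neighbour was not counted, and whether the pairs share a promoter was not examined. Among them 2 rose, 1 fell and 4 did not pass in limma, where 11.3% of all genes rose and 10.5% fell. Osgep, a tRNA modification gene, starts 56 bases from Apex1. Its log2 signals were 6.89, 6.73 and 6.88 in tumours 16, 18 and 2, against 6.88 and 7.08 in wild types 36 and 62. The difference was -0.15 (adjusted p = 0.313), while Apex1 rose by 2.03. Next to Nthl1, which rose by 0.35, Tsc2 differed by -0.02 (adjusted p = 0.653).

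Among the pairs whose repair gene did not pass, 3 neighbours did. Nbr1, an autophagy receptor gene 152 bases from Brca1, had 9.10, 9.25 and 8.98 in tumours, against 9.77 and 9.95 in wild types, and fell by 0.75 (adjusted p = 0.0184). Aimp2 next to Pms2, which encodes a scaffold of the tRNA synthetase complex, rose by 0.35 (adjusted p = 0.0131). Toe1 next to Mutyh rose by 0.57 (adjusted p = 0.0361). Differences between the change of a gene and that of its neighbour were not tested.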
